A study of Mus musculus with 18 samples.

Results

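The complement genes C3, C4b, C1ra, Cfb, Cfp, Serping1, Cd55, C3ar1 and C5ar1 were followed through cultured mouse embryonic fibroblasts (MEFs). The 9 genes were chosen by name from 55401 gene identifiers of the count table, and each was found under 1 identifier. They were described in all 6 groups of 3 libraries, each library being the poly(A) RNA of 1 culture. The study used these cells to ask how loss of the ribosomal S6 kinases alters the response of fibroblasts to an oncogene.

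MEFs are primary cells grown from minced embryos, here of mid-gestation embryos without head and viscera, on a C57BL/6 background. The S6K1 series held S6K1 wild-type (WT) MEFs with an empty retroviral vector (EV), WT MEFs with constitutively active RAS, and S6K1 knockout (KO) MEFs with RAS, the KO and WT embryos being littermates. In the second series, named S6K1/S6K2, MEFs lacking both kinases (double knockout, DKO) carried RAS and were set beside WT EV and WT RAS cells. These WT cells came from separate WT mothers and not from littermates of the DKO embryos. Each culture carried 1 retroviral vector, either the empty one or the one with RAS, an active form of HRAS. No EV library of KO or DKO cells was analysed here, so a loss of S6K was seen only in the presence of RAS. Whether libraries of a WT line with the same replicate number came from 1 embryo is not given in the sources used here, and p-values measure the spread between these cultures.

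Complement is a cascade of plasma and cell-surface proteins that marks particles for removal and calls in leukocytes. In the classical pathway, antibody-bound C1 (C1q with the proteases C1r and C1s) cleaves C4 and C2, and the resulting convertase cleaves C3. The alternative pathway uses factor B, factor D and properdin to amplify C3 cleavage, regulators such as the C1 inhibitor and decay-accelerating factor hold the cascade back, and the fragments C3a and C5a act through receptors on myeloid cells. Liver makes most plasma complement, and fibroblasts and macrophages make a share of their own.

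The stretch upstream of the start site is shown for C1ra, which was called lower with RAS in both series, for C3, whose levels varied with those of C1ra, and for C3ar1, whose levels varied with macrophage markers. Each is the 250 bases before the start in RefSeq (GRCm38.p6), written 5′ to 3′ on the strand of the gene, and capitals mark matches to any of 5 short motifs searched on both strands.
C3 chr17:57228137-57228386 (minus strand): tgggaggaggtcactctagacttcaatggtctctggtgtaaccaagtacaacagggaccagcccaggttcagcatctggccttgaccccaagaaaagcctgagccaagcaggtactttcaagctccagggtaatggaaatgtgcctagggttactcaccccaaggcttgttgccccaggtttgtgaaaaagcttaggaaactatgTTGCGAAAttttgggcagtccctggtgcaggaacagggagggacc
C1ra chr6:124512371-124512620 (plus strand): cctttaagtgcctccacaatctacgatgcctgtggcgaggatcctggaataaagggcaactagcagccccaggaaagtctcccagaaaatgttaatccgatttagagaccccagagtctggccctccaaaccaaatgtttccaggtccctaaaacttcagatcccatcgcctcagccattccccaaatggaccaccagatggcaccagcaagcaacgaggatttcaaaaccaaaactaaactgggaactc
C3ar1 chr6:122856158-122856407 (minus strand): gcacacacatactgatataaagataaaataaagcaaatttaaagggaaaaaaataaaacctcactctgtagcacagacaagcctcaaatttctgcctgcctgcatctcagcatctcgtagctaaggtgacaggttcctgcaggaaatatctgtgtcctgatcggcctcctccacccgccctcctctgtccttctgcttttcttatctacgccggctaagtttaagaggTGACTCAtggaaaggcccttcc
The motifs were GAS (TTCNNNGAA), ISRE (GAAANNGAA), AP-1 (TGANTCA), C/EBP (TTGCNNAA) and PU.1 (GAGGAA), none of which overlapped another in these windows. They were found in 7.02%, 7.13%, 6.75%, 9.56% and 23.3%, respectively, of the same window of all 32851 RefSeq promoters. The C3 window held 1 C/EBP match and the C3ar1 window 1 AP-1 match, while the letters of none of the 5 motifs were in the windows of C1ra, Cfp or Cd55. The C5ar1 window held 1 ISRE match. A match says only that the letters are there.

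Libraries held 8319445 to 14402442 counts in total. Rps6kb1, which encodes S6K1, was at 23.6 to 37.0 counts-per-million (CPM) in KO RAS, below the 61.6 to 74.6 CPM of WT RAS in its series, and at 34.5 to 39.7 CPM in DKO RAS, below the 75.5 to 83.7 CPM of WT RAS in the other, so that reads remained at the gene in the knockouts. Rps6kb2, which encodes S6K2, was at 2.68 to 3.04 CPM in DKO RAS, where WT RAS had 24.1 to 28.9 CPM. The fibroblast collagen gene Col1a1 was at 2041 CPM or above in every library, and Thy1 and Pdgfra were present in every library. WT EV replicate 1 of the S6K1/S6K2 series stood apart from the other 2 cultures of its group, as did the replicate 3 cultures of the S6K1 series for macrophage genes, and values without them are given where they change a call or move a called value by over 1.5 times. Each level below is a CPM scaled by TMM within its series, and each effect is a log2 fold change from edgeR's quasi-likelihood test with its standard error (SE) and a p adjusted over all genes tested in that series.

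Per kilobase of exon length, the genes ranged over more than an order of magnitude in WT EV cells. In the S6K1 series, C3ar1 was at 18.5 ± 9.86, C5ar1 at 17.3 ± 9.74 and Cfp at 16.2 ± 8.64 CPM per kilobase (SD, n = 3). Cd55 at 14.7 ± 2.69 and Serping1 at 13.6 ± 4.62 CPM per kilobase were within the spread of these 3 genes. C1ra was lower at 7.21 ± 1.30, C3 was at 1.02 ± 0.545 and C4b was at 0.284 ± 0.242 CPM per kilobase. In the S6K1/S6K2 series the order was another, with Cd55 at 24.5 ± 4.77, C1ra at 18.5 ± 10.1 and Serping1 at 17.9 ± 3.12 CPM per kilobase ahead of C3ar1 at 7.88 ± 9.52 and Cfp at 7.22 ± 6.75.

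**Figure D1:**
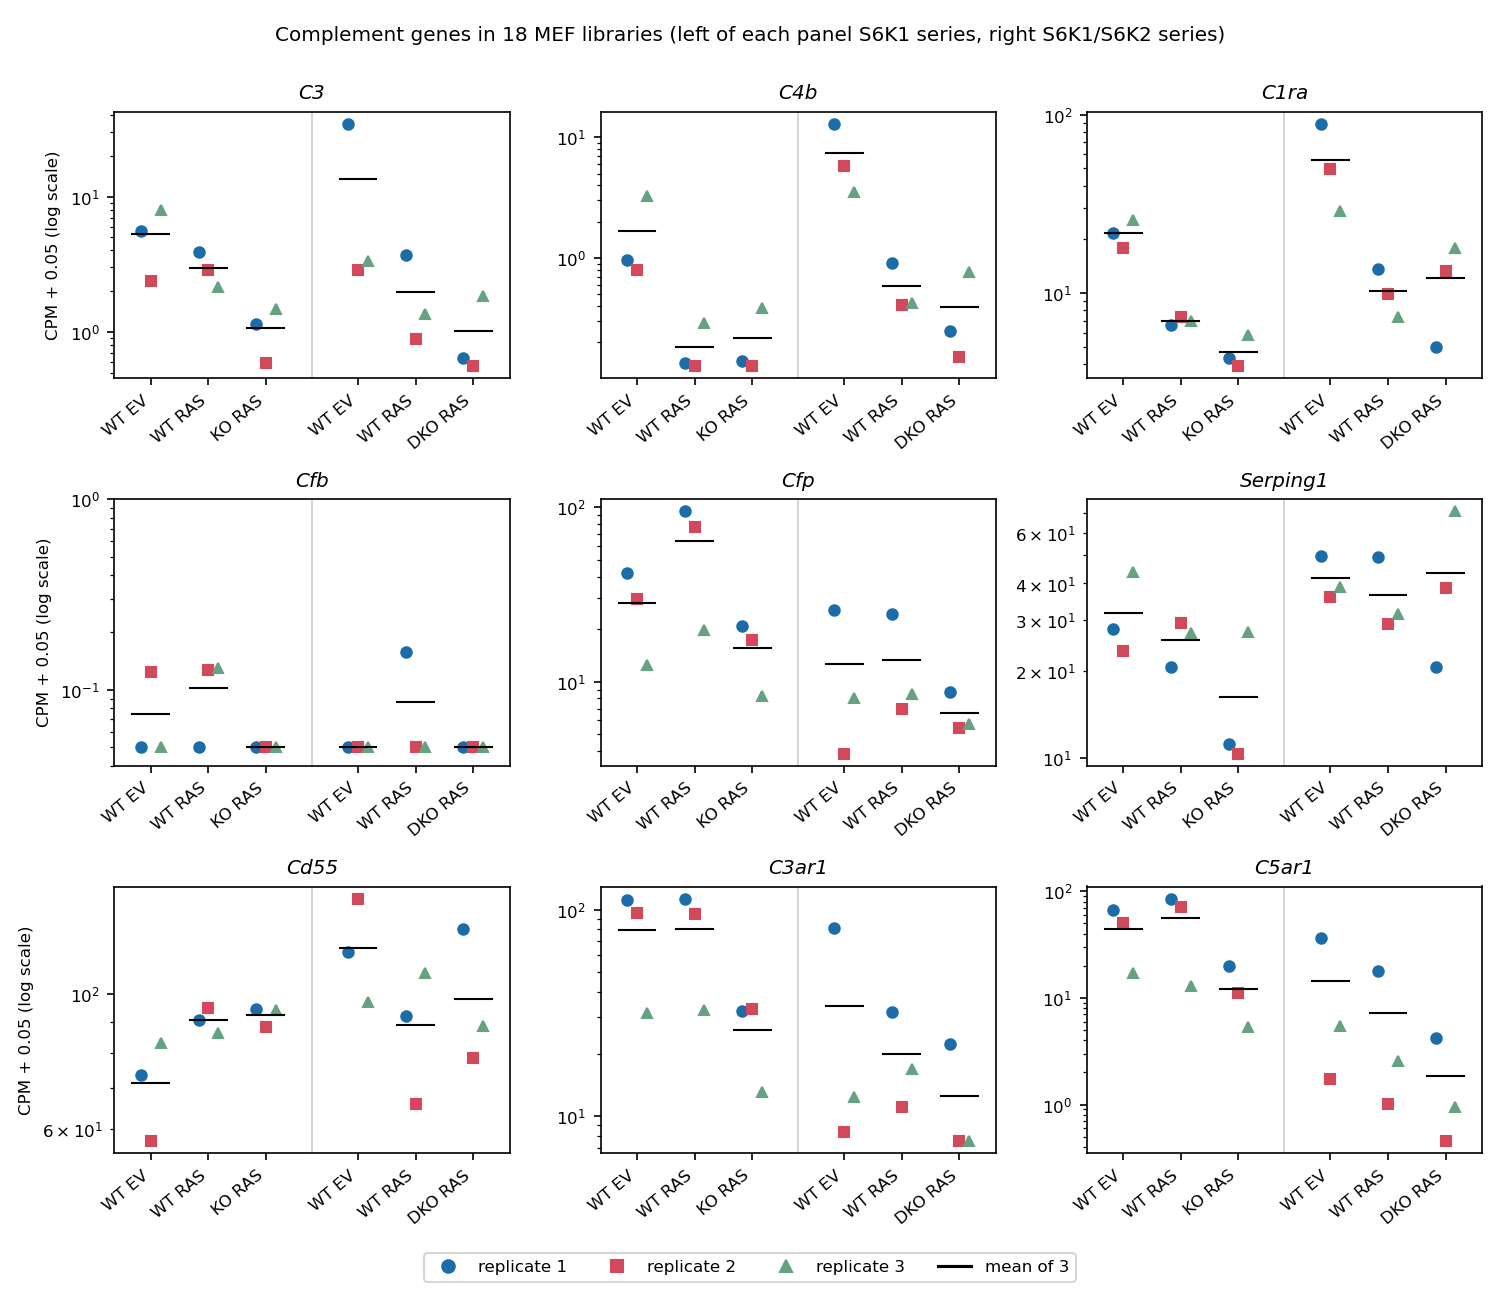
Level of each of the 9 complement genes in the 18 libraries (y axis, TMM-scaled CPM plus 0.05 on a log scale; x axis, the 6 groups, with the S6K1 series left of the grey line). Each marker is 1 library, its shape gives the replicate number and the bar is the mean of 3; in the S6K1 series, C1ra was at 17.7 to 25.6 CPM without RAS and at 6.57 to 7.24 CPM with it.

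To determine how RAS affects the genes that start the classical pathway, WT RAS and WT EV MEFs were compared within each series. C1ra, the mouse gene for the protease C1r, was lower with RAS in both series. C1ra of the S6K1 series was at 21.6, 17.7 and 25.6 CPM in the EV cultures and at 6.57, 7.24 and 6.91 CPM in the RAS cultures. The S6K1/S6K2 series had it at 88.5, 49.4 and 28.8 CPM in the EV cultures and at 13.5, 9.88 and 7.32 CPM in the RAS cultures. The groups did not overlap in either series, and every RAS culture was below every EV culture. The log2 fold change of C1ra was -1.64 (SE 0.20, edgeR adjusted p = 0.00104) in the S6K1 series and -2.44 (SE 0.50, edgeR adjusted p = 0.00719) in the S6K1/S6K2 series. Leaving out any 1 library kept both calls, with values between -1.76 and -1.51 and between -2.74 and -1.94. The 2 RAS effects on C1ra differed by -0.81 (SE 0.57, edgeR adjusted p = 0.545), where batch effects, if any, cannot be told apart from the series.

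C4b encodes complement C4, which activated C1 cleaves. C4b of the S6K1/S6K2 series was at 12.8, 5.75 and 3.50 CPM in the EV cultures and at 0.864, 0.357 and 0.371 CPM in the RAS cultures. Each RAS culture was again below each EV culture, and C4b fell by 3.77 on the log2 scale (SE 0.69, edgeR adjusted p = 0.00419). The call was kept without any 1 library, at -4.29 to -3.10, and the latter was without WT EV replicate 1. C4b passed the filter of this series through its EV cultures, as the RAS cultures had 8, 3 and 4 counts. A filter of at least 10 counts in every library left C4b untested. In the S6K1 series it was at 0.905, 0.745 and 3.21 CPM in the EV cultures and at 0.0854, 0.0779 and 0.241 CPM in the RAS cultures, which are a few counts per library. These groups did not overlap either, but C4b was below the count filter of that series. It passed in the fit of all 18 libraries through the EV cultures of the S6K1/S6K2 series, so no p is given. The log2 fold change with RAS in the S6K1 series was -3.44 (SE 0.86) in that fit. With RAS set at 3 counts per library, the log2 fold change in the S6K1 series was -2.73 or lower. C4b has the near-identical paralog C4a, between which single-end reads can be misassigned. In the S6K1 series C4a was at 0.607 ± 0.167 CPM without and 0.755 ± 0.186 CPM with RAS (SD, n = 3). No C4a level is given here for the S6K1/S6K2 series, where C4b was called.

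C3 encodes the central component on which all pathways converge. In the S6K1 series it was at 5.57, 2.31 and 7.88 CPM in the EV cultures and at 3.84, 2.80 and 2.09 CPM in the RAS cultures. The groups overlapped, and the log2 fold change of -0.85 (SE 0.47, edgeR adjusted p = 0.293) did not pass the test. C3 of the S6K1/S6K2 series was at 34.4, 2.83 and 3.32 CPM in the EV cultures and at 3.67, 0.834 and 1.30 CPM in the RAS cultures. The high value was WT EV replicate 1, and without that library the log2 fold change went from -2.80 (SE 1.00, edgeR adjusted p = 0.0652) to -0.67 (edgeR adjusted p = 0.498). With the replicate number as a block it was -2.39 (edgeR adjusted p = 0.0468). The difference between the RAS effects of the series was -1.96 (SE 1.17, edgeR adjusted p = 0.482), and it was 0.15 without WT EV replicate 1.

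In the fit of all libraries of a series without the block, the same comparison gave no call for Cfp, Serping1 or Cd55. With the block Cfp and Cd55 were called in the S6K1 series. The regulators Clu and Cr1l, which were called without the block, are described further below. Cfp encodes properdin, which stabilises the C3 convertase of the alternative pathway. Cfp of the S6K1 series was at 42.2, 29.7 and 12.4 CPM in the EV cultures and at 95.0, 77.3 and 19.8 CPM in the RAS cultures. It was higher with RAS in 3 of 3 pairs of the same replicate number, with a log2 fold change of 1.18 (SE 0.60, edgeR adjusted p = 0.247) without the block and 1.12 (edgeR adjusted p = 0.000444) with it. Without the 3 libraries of replicate number 3 it was 1.26 (edgeR adjusted p = 0.0178). Cfp of the S6K1/S6K2 series was at 25.8, 3.80 and 7.95 CPM in the EV cultures and at 24.5, 6.91 and 8.43 CPM in the RAS cultures, and its log2 fold change of 0.08 (SE 0.66, edgeR adjusted p = 0.940) was well within the spread of cultures. Over both series, 0 of 8 genes had a called difference of the RAS effect, as did 0% of all genes (0 genes). For Cfp the difference, -1.12 (SE 0.97, edgeR adjusted p = 0.619), did not pass. Cfb, which encodes factor B, had 4 counts in all 18 libraries together, and 79.5% of its exonic bases are shared on the same strand with a second annotated gene, Gm20547, which had 0 counts, and no level is given for Cfb. Whether reads there were left uncounted was not tested.

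Serping1 encodes the C1 inhibitor, which inactivates C1r and C1s. It was at 27.8, 23.3 and 43.8 CPM in the EV cultures of the S6K1 series and at 20.6, 29.2 and 26.8 CPM in its RAS cultures. Serping1 of the S6K1/S6K2 series was at 49.8, 36.0 and 39.0 CPM in the EV cultures and at 49.3, 28.9 and 31.4 CPM in the RAS cultures. Both pairs of groups overlapped, with log2 fold changes of -0.31 (SE 0.38, edgeR adjusted p = 0.656) and -0.19 (SE 0.38, edgeR adjusted p = 0.747). Cd55 encodes decay-accelerating factor, a membrane protein that takes convertases apart. It was at 73.5, 57.4 and 83.2 CPM in the EV cultures of the S6K1 series and at 90.4, 94.8 and 86.4 CPM in its RAS cultures, higher in every RAS culture than in any EV culture. The log2 fold change of Cd55 was 0.34 (SE 0.14, edgeR adjusted p = 0.144), and 0.36 (edgeR adjusted p = 0.0342) with the block. Cd55 of the S6K1/S6K2 series was at 117, 143 and 96.9 CPM in the EV cultures and at 91.8, 66.1 and 108 CPM in the RAS cultures, a log2 fold change of -0.42 (SE 0.23, edgeR adjusted p = 0.206). The difference of the RAS effect on Cd55 between the series was -0.78 (SE 0.29), with an edgeR p of 0.0159 before and 0.318 after adjustment.

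C3ar1 and C5ar1 encode the receptors of C3a and C5a. C3ar1 was at 111, 96.5 and 31.5 CPM in the EV cultures of the S6K1 series and at 113, 95.1 and 32.6 CPM in its RAS cultures, and C5ar1 was at 65.9, 50.4 and 16.9 CPM in the EV cultures and at 85.1, 71.4 and 12.8 CPM in the RAS cultures. Replicate 3 was the lowest culture of each group for both genes. The log2 fold changes were 0.00 (SE 0.56, edgeR adjusted p = 0.996) for C3ar1 and 0.34 (SE 0.70, edgeR adjusted p = 0.799) for C5ar1. In the S6K1/S6K2 series C3ar1 was at 81.2, 8.31 and 12.2 CPM in the EV cultures and at 31.9, 11.0 and 16.8 CPM in the RAS cultures, and C5ar1 was at 36.0, 1.68 and 5.42 CPM in the EV cultures and at 17.9, 0.953 and 2.50 CPM in the RAS cultures. Replicate 1 was the highest culture of both groups for both genes. The log2 fold changes were -0.77 (SE 0.81, edgeR adjusted p = 0.505) for C3ar1 and -1.01 (SE 1.20, edgeR adjusted p = 0.558) for C5ar1, and C5ar1 passed only with the block, at -0.99 (edgeR adjusted p = 0.0197).

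In the S6K1 series 7 of the 9 genes passed the filter and 1 of them was called with RAS, where 13.2% of all 14036 genes tested were called, and with the block 3 were called, where the share over all genes was 36.2%. The groups of 2 of the 7 did not overlap, C1ra and Cd55, against 30.9% of all genes. Of the S6K1/S6K2 series, 8 of the 9 passed the filter and 2 were called with RAS, where 26.3% of all 13881 genes were called. With the block 4 were called, against 28.7% of all genes. The groups of C4b and C1ra, 2 of the 8, did not overlap there, against 42.5% of all genes. A share near the background is not a result about the complement genes. Fibroblast marker genes moved beside C1ra and C4b: 6 of the 12 markers were called with RAS in each series, 5 lower and 1 higher in the S6K1 series and 6 lower in the S6K1/S6K2 series, Col1a1 among them at -1.90 and -2.06 on the log2 scale. The summed level of the 12 markers was 50601 to 62788 CPM without and 26505 to 37984 CPM with RAS in the S6K1 series, and 47926 to 60530 and 27238 to 30988 CPM in the S6K1/S6K2 series. The sum of 6 epithelial markers was 5.13 to 10.2 CPM without and 121 to 157 CPM with RAS in the S6K1 series, and the part of either list in the fall of C1ra and C4b was not tested.

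**Figure D2:**
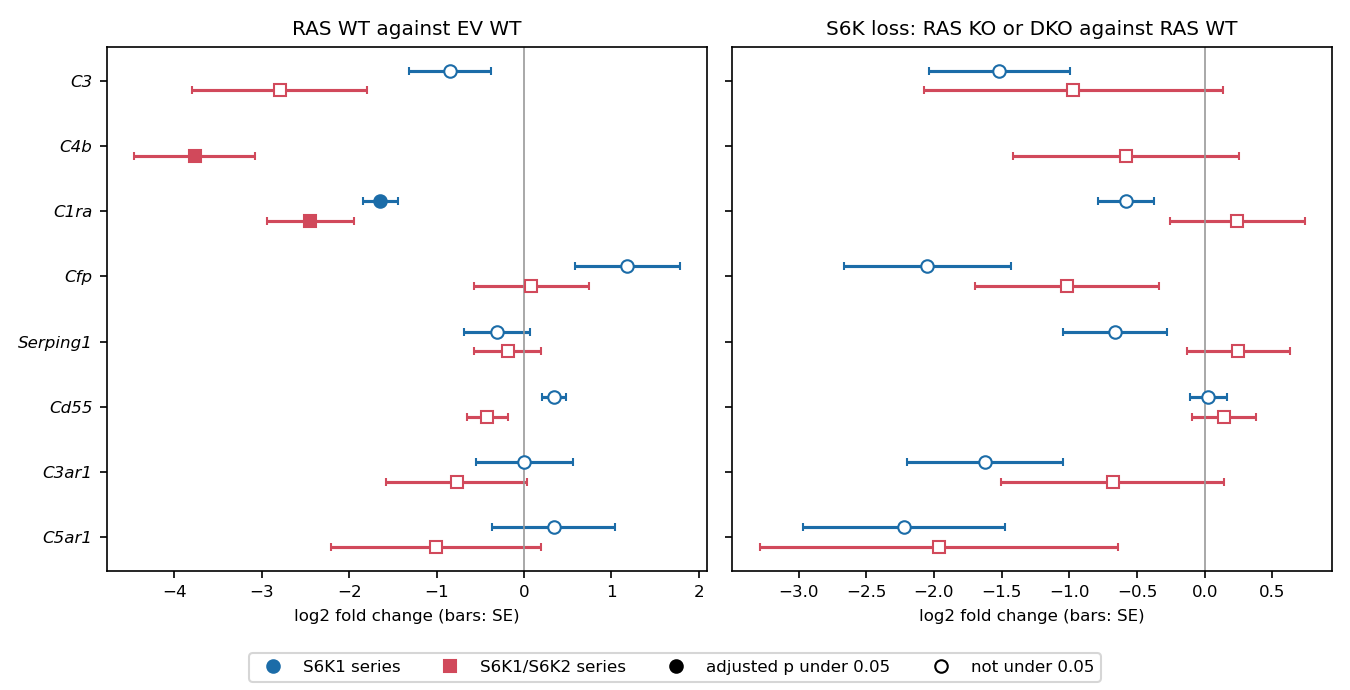
Log2 fold change with its SE (x axis) of the 8 complement genes with counts (y axis) for RAS against EV in WT cells (left) and for loss of S6K in RAS cells (right); filled markers have an edgeR adjusted p under 0.05. C1ra was called with RAS in both series and C4b in the S6K1/S6K2 series, no gene was called with S6K loss without the replicate block (3 were with it in the S6K1 series), and C4b of the S6K1 series has no marker because it was below the count filter.

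To examine the loss of S6K, KO or DKO RAS MEFs were compared with WT RAS MEFs. In the S6K1 series Cfp, C3ar1 and C5ar1 were the genes with the lowest KO values relative to WT. Cfp was at 20.9, 17.2 and 8.25 CPM in KO RAS, against 95.0, 77.3 and 19.8 CPM in WT RAS. C3ar1 was at 32.1, 33.0 and 13.0 CPM in KO RAS, against 113, 95.1 and 32.6 CPM in WT RAS. C5ar1 was at 20.0, 11.1 and 5.25 CPM, against 85.1, 71.4 and 12.8 CPM in WT RAS. Each gene was lower in KO in 3 of 3 pairs of the same number, while the groups overlapped through WT RAS replicate 3. The log2 fold changes without the block were -2.05 (SE 0.62) for Cfp, -1.62 (SE 0.58) for C3ar1 and -2.22 (SE 0.75) for C5ar1, each with an edgeR adjusted p of 0.587. With the replicate number as a block they were -1.93 (edgeR adjusted p = 9.44e-05), -1.57 (edgeR adjusted p = 2.65e-05) and -2.12 (edgeR adjusted p = 0.000236). Without WT RAS replicate 3 they were -2.48 (edgeR adjusted p = 0.0698), -1.996 (edgeR adjusted p = 0.113) and -2.69 (edgeR adjusted p = 0.0824), with no block. Without all 3 libraries of replicate number 3 they were -2.17 (edgeR adjusted p = 0.00974), -1.67 (edgeR adjusted p = 0.00710) and -2.33 (edgeR adjusted p = 0.0149), and all 3 genes were called.

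Macrophage marker genes moved with these 3 genes. All 6 defining markers (Ptprc, Csf1r, Adgre1, Spi1, Tyrobp and Cd68) had counts, none being at 0 in a group, and the 25 markers summed to 881 to 4111 CPM in the WT RAS cultures of the S6K1 series but to 313 to 987 CPM when S6K1 was absent. Of the 24 markers tested, 24 had a lower value in KO RAS, of which 0 were called by edgeR without the block and 23 with it. As a share of the macrophage sum, Cfp was at 2.02 to 2.31% in the WT and 2.12 to 2.63% in the KO cultures with RAS, C3ar1 at 2.48 to 3.70% and 3.25 to 4.15%, and C5ar1 at 1.45 to 2.07% and 1.38 to 2.03%. WT RAS and KO RAS thus overlapped in all 3 shares, and their part in the result was not tested. In WT EV the Cfp share was 0.977 to 1.54%, below that of every RAS culture of the series, while C3ar1 was at 2.94 to 3.91% and C5ar1 at 1.66 to 2.10%. In bulk RNA, fewer cells of a type and less RNA per cell cannot be told apart.

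C3 and C1ra also had lower values in KO RAS, with no call. C3 was at 1.09, 0.536 and 1.42 CPM in KO RAS, where WT RAS had 3.84, 2.80 and 2.09 CPM, a log2 fold change of -1.52 (SE 0.52, edgeR adjusted p = 0.587). C1ra was at 4.27, 3.83 and 5.75 CPM in KO RAS, where WT RAS had 6.57, 7.24 and 6.91 CPM, a log2 fold change of -0.58 (SE 0.21, edgeR adjusted p = 0.587). The groups of these 2 genes did not overlap, which held for 8.02% of all genes tested, and neither passed with the block (edgeR adjusted p = 0.0813 and 0.0893). C4b stayed at a few counts, with 0.0909, 0.0766 and 0.333 CPM in KO RAS. Serping1 was at 11.1, 10.3 and 27.1 CPM in KO RAS, a log2 fold change of -0.66 (SE 0.38, edgeR adjusted p = 0.931) in which KO RAS replicate 3 was level with the WT RAS cultures. Without the 3 libraries of replicate number 3 it was -1.22 (edgeR adjusted p = 0.0463). Cd55 was at 94.4, 88.2 and 94.0 CPM in KO RAS, which overlapped WT RAS (log2 fold change 0.03, approximate 95% interval -0.25 to 0.30).

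By edgeR without the block, 0 of the 7 genes tested were called for KO against WT RAS, where 0.00712% of all genes (1 gene) were called. An unadjusted p under 0.05 was found for 5 of the 7, and for 963 of all 14036 genes. DESeq2 called 1 gene, Cfp, at -2.06 (DESeq2 adjusted p = 0.0446). With the block 3 genes were called, all lower, against 4.15% of all genes.

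**Figure D3:**
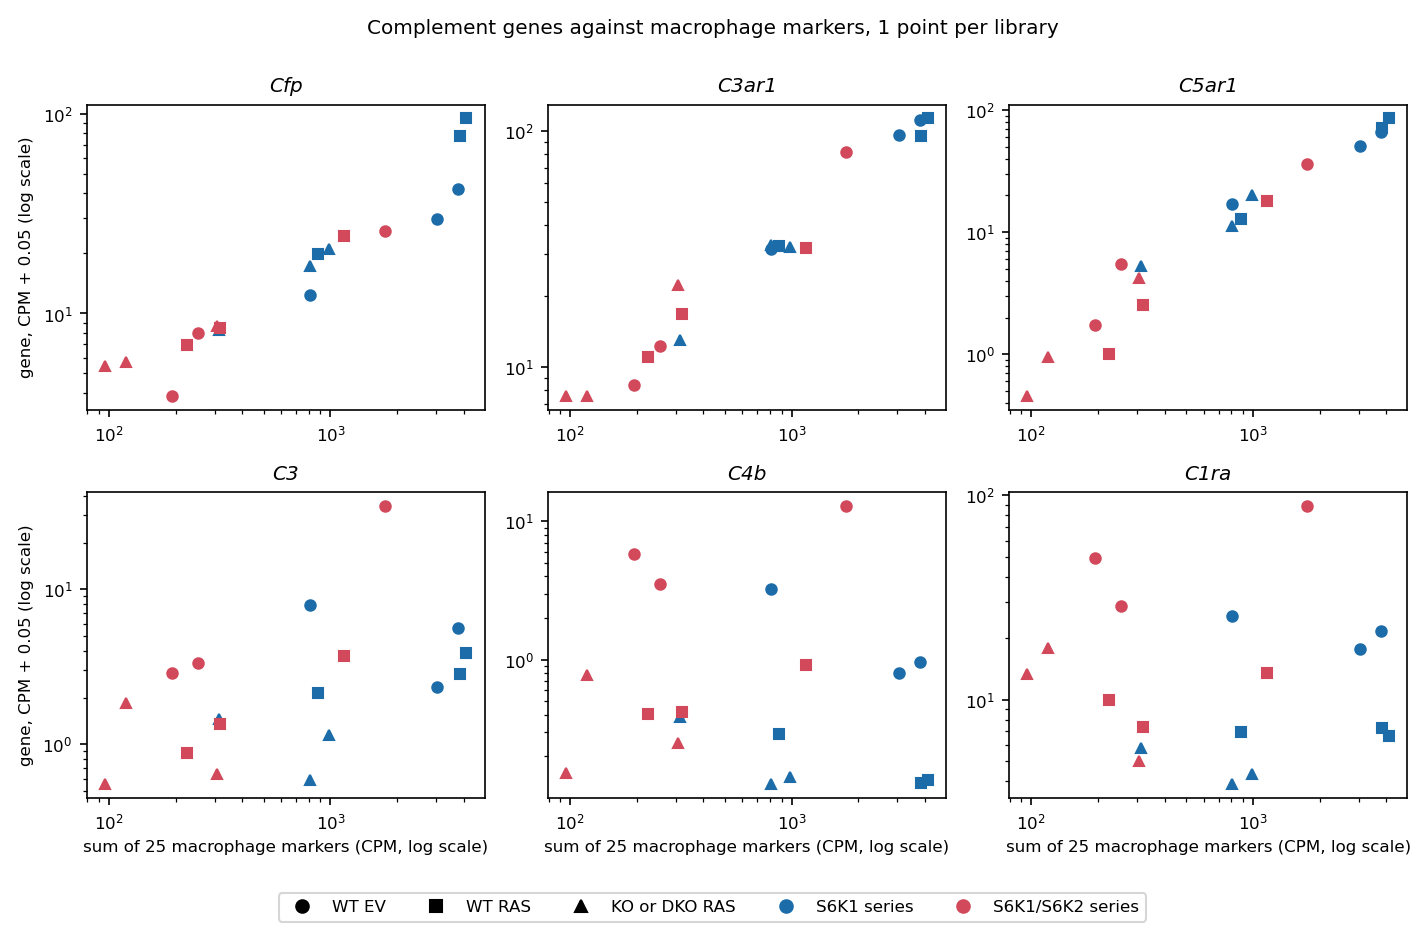
Level of 6 complement genes (y axis, CPM plus 0.05, log scale) against the summed level of 25 macrophage markers (x axis, CPM, log scale), 1 point per library, with series by colour and group by shape. Cfp, C3ar1 and C5ar1 follow the sum from 96.0 to 4111 CPM, while within each series every EV point of C4b and C1ra lies above every WT RAS point.

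In the S6K1/S6K2 series no gene separated DKO RAS from WT RAS. C5ar1 was at 4.16, 0.406 and 0.902 CPM in DKO RAS, where WT RAS had 17.9, 0.953 and 2.50 CPM, a log2 fold change of -1.96 (SE 1.32, edgeR adjusted p = 1.00), and without WT RAS replicate 1 it was 0.04. Cfp was at 8.62, 5.37 and 5.69 CPM in DKO RAS, a log2 fold change of -1.02 (SE 0.68). C3ar1 was at 22.3, 7.50 and 7.49 CPM in DKO RAS, a log2 fold change of -0.68 (SE 0.82). The macrophage sum was 96.0 to 307 CPM in DKO RAS, where WT RAS had 225 to 1156 CPM. Of the 23 macrophage markers tested, 23 had a lower value in DKO RAS (median log2 fold change -1.88). By edgeR 0 were called without the block and 4 with it, and 2 had an unadjusted p under 0.05. The part of these markers in the values of C5ar1, Cfp and C3ar1 was not tested. C3ar1 was 6.29 to 7.81% of the macrophage sum in DKO RAS, above the 2.76 to 5.26% of WT RAS. The C5ar1 shares overlapped (0.422 to 1.36% in DKO RAS and 0.423 to 1.55% in WT RAS). So did the Cfp shares (2.81 to 5.597% in DKO RAS and 2.12 to 3.07% in WT RAS).

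C3 was at 0.595, 0.507 and 1.80 CPM in DKO RAS, C4b at 0.198, 0.101 and 0.722 CPM, and C1ra at 4.96, 13.3 and 17.9 CPM. Their log2 fold changes against WT RAS were -0.97 (SE 1.10), -0.58 (SE 0.83) and 0.24 (SE 0.50). Serping1 ranged from 20.5 to 71.0 CPM and Cd55 from 78.4 to 127 CPM in DKO RAS, and the groups overlapped for both genes. By edgeR, 0 of the 8 genes were called, where 0.0216% of all genes were called. An unadjusted p under 0.05 was found for 0 of the 8, and for 179 of all 13881 genes. The groups of 0 of the 8 genes were free of overlap, against 6.07% of all genes. DESeq2 also called 0 of these genes. The loss effect of DKO minus that of KO was between -0.84 (C4b) and 1.08 (Cfp) on the log2 scale over the 8 genes, with 0 called, where 0.0069% of all genes were called. Approximate 95% intervals of these differences were wide, from -0.91 to 3.06 for Cfp and from -3.04 to 3.65 for C5ar1.

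KO and DKO RAS cells were also set against WT EV cells. C3 fell by 2.36 on the log2 scale (SE 0.52, edgeR adjusted p = 0.0133) in KO RAS and C1ra by 2.23 (SE 0.21, edgeR adjusted p = 0.000237), which were the 2 genes called of 7, where 18.1% of all genes were called. With the block all 7 tested genes were called, 6 lower and Cd55 higher, where 41.1% of all genes were. Macrophage markers moved beside them, 24 of 24 having lower values, of which 7 were called without and 23 with the block, and their sum was 805 to 3782 CPM in WT EV and 313 to 987 CPM in KO RAS. Of the 12 fibroblast markers 6 were called, all lower, and the part of either list was not tested. The groups of 3 of the 7 (C3, C1ra and Cd55) did not overlap, against 34.9% of all genes. In DKO RAS, C4b fell by 4.35 (SE 0.72, edgeR adjusted p = 0.00246, and -5.49 without DKO RAS replicate 3 to -3.68 without WT EV replicate 1), C1ra by 2.20 (SE 0.49, edgeR adjusted p = 0.0108) and C3 by 3.77 (SE 1.07, edgeR adjusted p = 0.0285), 3 of 8 genes where 25.7% of all genes were called. The same 3 genes had no overlap with WT EV, against 43.5% of all genes. Of these, C4b had 2, 1 and 8 counts in DKO RAS and passed the filter through its EV cultures. Macrophage markers had lower values in 22 of 23 cases, with 0 called. Of them 14 had an unadjusted edgeR p under 0.05, as did 5467 of all 13881 genes. Of the 12 fibroblast markers 6 were called, all lower. The C3 call was lost without WT EV replicate 1, where the fall was 1.64 (edgeR adjusted p = 0.112), without DKO RAS replicate 1 or 2 (0.0966 and 0.101) and in the 6 compared libraries alone (0.0525). In KO RAS it was lost without KO RAS replicate 2 (0.0577) and in the fit of all 18 libraries (0.0805). These comparisons share their EV libraries with the RAS comparisons above.

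The variation of the 8 genes with counts was compared over the 18 libraries, each series centred on its own mean. C4b and C1ra correlated at r = 0.914, C3 and C1ra at 0.829 and C3 and C4b at 0.828, while C3ar1 and C5ar1 correlated at 0.935 and Cfp and C3ar1 at 0.905 (Pearson's r of log2 CPM, n = 18 libraries). C3 also correlated with C5ar1 at 0.709 and C3ar1 at 0.603. Serping1 reached 0.611 with C1ra, and Cd55 at most 0.170 with any of the others. With the macrophage sum, r was 0.974 for C3ar1, 0.961 for C5ar1 and 0.923 for Cfp. It was 0.631 for C3, 0.339 for C1ra, 0.270 for C4b, 0.111 for Serping1 and 0.0328 for Cd55. The points share libraries, depth and the same group differences, so the values describe the patterns and are not tested. Among 9830 genes of at least 100 counts on average, those closest to C3ar1 were Laptm5, Adgre1 (listed as Emr1) and Nckap1l (r of 0.961, 0.959 and 0.957), and those closest to C5ar1 were C1qb, Rac2 and Laptm5 (r of 0.988, 0.987 and 0.986). Those closest to Cfp were Itgb2, Cd14 and Clec4d (r of 0.941, 0.939 and 0.933). C1ra was closest to Olfml3, Mfap4 and Prrx2 (r of 0.979, 0.977 and 0.974), C4b to Foxp2, Mme and Zcchc5 (r of 0.981, 0.976 and 0.966), and C3 to Icam1, Acat1 and Nt5dc2 (r of 0.930, 0.920 and 0.920). The highest r was 0.861 for Serping1 (with Arxes2) and 0.887 for Cd55 (with Ngly1).

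Of 47 other complement genes on the lists, 45 had an identifier, and 24 were tested in the S6K1 series and 18 in the S6K1/S6K2 series. With RAS 2 of 24 (13.2% of all genes) and 4 of 18 (26.3% of all genes) were called. C1s1, which encodes the C1s partner of C1r, fell with RAS in both series, by 1.37 (SE 0.29, edgeR adjusted p = 0.0144) and 1.82 (SE 0.46, edgeR adjusted p = 0.0181) on the log2 scale. It was at 56.0, 48.1 and 80.1 CPM in the EV cultures of the S6K1 series and at 22.5, 27.1 and 21.4 CPM in its RAS cultures, with no overlap. The S6K1 call was lost without WT RAS replicate 1 (edgeR adjusted p = 0.0546), and the S6K1/S6K2 call without WT EV replicate 2, WT RAS replicate 2 or WT RAS replicate 3 (0.0568, 0.0559 and 0.0604). Among the S6K1 libraries Clu, the gene for the fluid-phase inhibitor clusterin, rose by 2.16 (SE 0.51, edgeR adjusted p = 0.0226), and was not called without WT EV replicate 1 or 2 (0.0723 and 0.0788). Among the S6K1/S6K2 libraries Masp1, a lectin pathway protease, rose by 1.37 (SE 0.38, edgeR adjusted p = 0.0271), and was not called without WT EV replicate 2, WT RAS replicate 2 or WT RAS replicate 3 (0.0537, 0.0861 and 0.0615) or in the 6 compared libraries alone (0.0601). C8g, a terminal pathway chain, fell by 2.16 (SE 0.46, edgeR adjusted p = 0.00883) and Cr1l, the gene for the convertase regulator Crry, by 0.92 (SE 0.21, edgeR adjusted p = 0.0107), the latter not called without WT RAS replicate 2 (0.0520). For loss of S6K, 0 of 24 and 0 of 18 genes were called by edgeR without the block. Of these, 9 and 0 had an unadjusted p under 0.05, against 963 of all 14036 and 179 of all 13881 genes. Fitted as pairs by replicate number (the block), 8 of the 24 were called in the S6K1 series, 7 lower and 1 higher, against 4.15% of all genes. Among them were C1qa, C1qb and C1qc, the chains of C1q, at -2.39, -2.33 and -2.26 (edgeR adjusted p = 4.12e-05, 3.89e-05 and 1.89e-05).

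The partners C2 and Cd59a were present in every group and were not called with RAS or with loss of S6K by edgeR without the block. C2, cleaved by C1s as C4 is, was at 6.88 ± 3.94 CPM in WT and 2.46 ± 0.317 CPM in KO cells with RAS (SD, n = 3), and 40.8% of its exonic bases are shared with Gm20547. Cd59a, which blocks the terminal complex, was at 9.26 ± 1.22 CPM in the former and 11.4 ± 3.92 CPM in the latter. C5ar2, the second C5a receptor, was at 1.42 ± 0.730 and 0.528 ± 0.313 CPM, a log2 fold change of -1.42 (SE 0.58, edgeR adjusted p = 0.643). C1qa, the first chain of C1q, was at 321, 229 and 42.1 CPM in WT cells with RAS, where KO cells had 62.8, 29.7 and 12.7 CPM, and its r with the macrophage sum was 0.975.

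**Figure D4:**
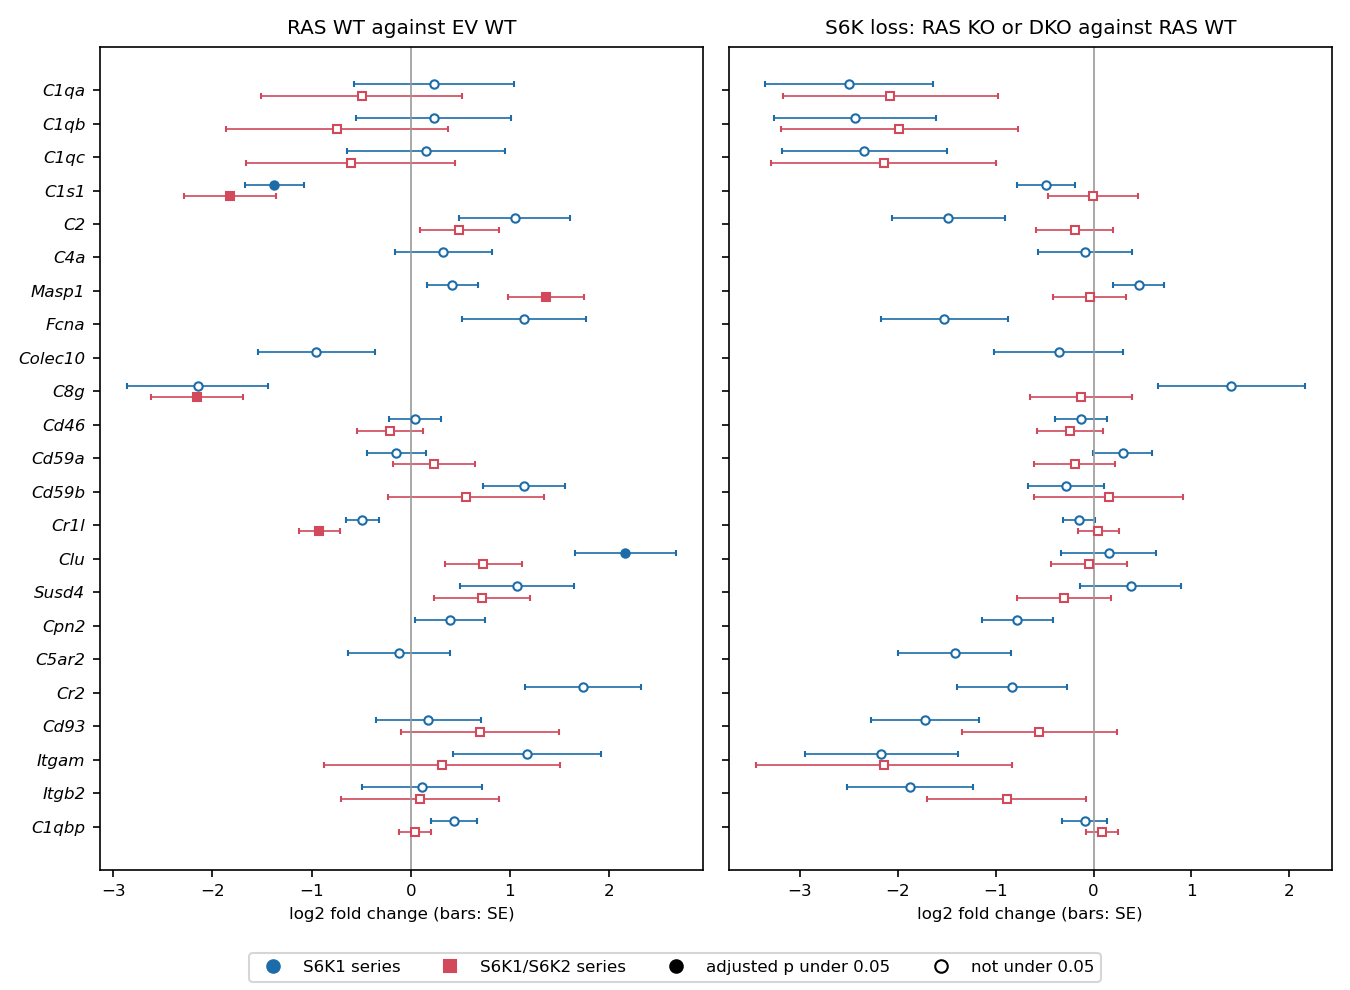
Log2 fold change with its SE (x axis) of the other complement genes tested in at least 1 series (y axis, 1 gene not shown), for RAS against EV (left) and loss of S6K (right); filled markers have an edgeR adjusted p under 0.05. C1s1 was called in both series with RAS (-1.37 and -1.82) and no gene was called with loss of S6K without the replicate block (8 were with it in the S6K1 series).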

How the data were processed

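Poly(A) RNA of 18 MEF cultures was measured in 6 groups of 3 libraries, grouped by the labels. The authors deposited raw counts per gene, 1 column per library. The methods of the study name stranded single-end libraries, TopHat, the mm9 genome and HTSeq, whereas the submitters' processing notes list STAR 2.7.1a, DESeq2 1.28.1, CASAVA and mm10, so the build and counter behind the counts are not settled and a miscounted overlapping gene cannot be traced. Exon lengths and overlaps came from the GENCODE annotation of NCBIM37, and promoters from RefSeq (GRCm38.p6). All 9 genes had an identifier. Cfb, C4b and Serping1 are not in the promoter table used. The motif set was changed after an earlier scan, and the ISRE match of C5ar1 is not there with a longer form of that motif.

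Counts were fitted in R 4.3.3 with edgeR 4.0.16 over the 9 libraries of a series (group only, TMM, filterByExpr with a minimum count of 10), with two-sided quasi-likelihood tests, Benjamini-Hochberg adjustment and a threshold of 0.05. Differences between series used all 18 libraries. The approximate 95% interval is the estimate ± 2 SE. Correlations used log2 CPM with a prior count of 2. Total counts of 8319445 to 14402442 set the counting error; a gene with 3 or fewer counts per library is near the limit that a count of 0 allows. No replicate pair agreed within counting noise (chi-square per degree of freedom of at least 7.98 over 18 pairs). Counts were simulated for 14036 genes in the S6K1 series and 13881 in the S6K1/S6K2 series, with RAS changes planted in a sample of the better expressed genes. Of the genes given changes of 1 and 2 on the log2 scale, 54.9% and 97.2% were recovered in the S6K1 series. In the S6K1/S6K2 series 42.6% and 95.7% were recovered. These shares do not cover genes as low as C4b, or as C3 in the S6K1 series.

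Replicate numbers were taken as pairs where the deviations of every same-numbered pair from the group means correlated at over 0.1. For S6K1, WT RAS and WT EV libraries of 1 number correlated at 0.684, 0.444 and 0.668, KO RAS and WT RAS at 0.692, 0.393 and 0.616, and KO RAS and WT EV at 0.646, 0.489 and 0.510. For S6K1/S6K2, WT RAS and WT EV libraries correlated at 0.366, 0.293 and 0.308. The block was fitted over all 9 libraries of a series. The DKO libraries, which share only a number with the others, thus entered the block values of the S6K1/S6K2 series.

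The 9 genes, the lists (47 other complement, 25 macrophage, 12 fibroblast, 8 endothelial, 6 epithelial, 12 interferon and 10 NF-κB genes) and the rule for named genes were chosen with earlier results of these data known. By that rule the text names the 9 genes, 11 fixed partners, any other complement gene called in a comparison, the 3 genes most alike each member, defining markers, S6K genes and up to 3 reference genes. The values of 1 partner are not reported here. C1qa, C1qb and C1qc were added after their values were seen. Alternatives were DESeq2 1.42.0, its size factors, upper-quartile scaling, no filter, a stricter filter, the replicate block, other sets of libraries and leaving out each library. The fits without replicate number 3 of the S6K1 series and number 1 of the S6K1/S6K2 series were added after seeing the data.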

Additional observations from a re-analysis of the deposited data

How the results depend on the processing

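Each count below is of genes called, with complement genes of the 9 given first and the other complement genes after them. For RAS in WT cells of the S6K1 series (1 and 2 in the fit reported), DESeq2 gave 2 and 4, no filter 2 of the 9, and all 18 libraries 2 and 4. For KO RAS against WT RAS (0 and 0), DESeq2 and no filter each gave 1 of the 9, and for KO RAS against WT EV (2 and 4), DESeq2 gave 4, no filter 6 and 9, and at least 10 counts in every library 1. For RAS in WT cells of the S6K1/S6K2 series (2 of the 9), at least 10 counts in every library gave 1, and for DKO RAS against WT EV (3 and 4) it gave 1 and no filter 5 and 7. The strict filter tests fewer genes, while the cause of the other shifts was not tested. With the replicate block, where the numbers pair the samples, the counts were 3 and 10 for RAS in WT cells of the S6K1 series, 3 and 8 for KO RAS against WT RAS, 7 and 14 for KO RAS against WT EV, and 4 of the 9 for RAS in WT cells of the S6K1/S6K2 series. DKO and WT EV libraries share only a number (correlations of 0.194, 0.295 and -0.118), as do DKO and WT RAS libraries (0.279, 0.454 and -0.0351). The block gave 8 other complement genes for DKO RAS against WT EV and 0 of the 9 against WT RAS. Both fits that leave out a replicate number were chosen after seeing the data. Without the libraries of replicate number 3, the S6K1 counts were 2 and 4, 4 and 7, and 6 and 10, in the order above. Without replicate number 1, DKO RAS against WT EV had 8 other complement genes, and C3 was no longer called there. Over all genes, KO RAS against WT RAS went from 1 gene to 96 (DESeq2), 108 (no filter), 583 (block), 4 (18 libraries), 0 (6 libraries) and 381 (without number 3), and DKO RAS against WT RAS from 3 to 10 (DESeq2), 11 (no filter), 8 (block) and 7 (18 libraries). The block raised RAS against EV from 1859 to 5085 and KO RAS against WT EV from 2542 to 5766 in the S6K1 series. RAS against EV there also gave 2386 (DESeq2), 2043 (no filter), 2057 (18 libraries) and 1551 (without number 3). KO RAS against WT EV gave 3071 (DESeq2), 2731 (no filter), 2029 (at least 10 counts) and 2431 (without number 3). In the S6K1/S6K2 series, RAS against EV went from 3646 to 3106 (at least 10 counts) and 3980 (block). DKO RAS against WT EV went from 3565 to 3970 (no filter), 3008 (at least 10 counts), 3931 (block) and 3187 (without number 1). For the difference of RAS effects, 0 genes went to 142 (DESeq2), 204 (no filter) and 58 (block).

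Some log2 fold changes that were not called changed sign. Cd55 in KO RAS against WT RAS was -0.000202 with upper-quartile scaling, -0.018 without number 3 and -0.0048 to 0.058 without single libraries. Without number 3, C3ar1 with RAS in the S6K1 series was -0.000972. Without number 1, C3ar1 with RAS in the S6K1/S6K2 series went from -0.77 to 0.44, and for DKO RAS against WT RAS C3 went from -0.97 to 0.11, C4b from -0.58 to 0.21 and Cd55 to -0.0700.

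Leaving out 1 library at a time, the 9 genes gave 1 to 2 calls for RAS in WT cells of the S6K1 series, 0 to 0 for KO RAS against WT RAS, 1 to 5 for KO RAS against WT EV, 2 to 3 for RAS in WT cells of the S6K1/S6K2 series, 0 to 0 for DKO RAS against WT RAS and 2 to 3 for DKO RAS against WT EV, and the other complement genes 1 to 4, 0 to 0, 1 to 8, 1 to 5, 0 to 0 and 1 to 5. Over all genes the calls, in the same order, ran from 1043 to 1919, 0 to 22, 1325 to 2848, 2050 to 4199, 1 to 3 and 1999 to 4044. Log2 fold changes that crossed 0, none of them called, ran from -0.38 to 0.38 (C3ar1) and -0.0788 to 0.81 (C5ar1) for RAS in the S6K1 series. For RAS in the S6K1/S6K2 series they ran from -0.70 to 1.17 (Cfp), -1.28 to 0.95 (C3ar1) and -3.02 to 1.00 (C5ar1), the upper ends being without WT EV replicate 1 and the lower without WT RAS replicate 1. For DKO RAS against WT RAS they ran from -0.17 to 0.61 (C1ra), -0.31 to 0.59 (Serping1), -0.0886 to 0.31 (Cd55) and -3.40 to 0.0437 (C5ar1). For DKO RAS against WT EV they ran from -1.36 to 0.15 (Cfp), -0.48 to 0.40 (Serping1) and -2.17 to 0.27 (C3ar1). Differences of RAS effects ran from -2.79 to 0.15 (C3), -1.25 to 0.33 (C4b), -0.19 to 0.29 (Serping1), -1.29 to 0.92 (C3ar1) and -3.35 to 0.63 (C5ar1), and differences of loss effects from -0.24 to 1.41 (C3), -1.997 to 0.0699 (C4b), -0.10 to 0.32 (Cd55) and -1.15 to 2.28 (C5ar1). With 3 cultures per group and a few counts for C4b and Cfb, small changes of these genes were not detectable.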

Other observations

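The 12 interferon response genes had higher values with RAS in 11 of 12 cases in the S6K1 series (0 called by edgeR, 4 with the replicate block) and lower values in 11 of 12 cases in the S6K1/S6K2 series (3 called). Of all genes, 13.2% were called in the S6K1 series without and 36.2% with the block, and 26.3% in the S6K1/S6K2 series without it. The difference of the RAS effect between the series was called for 0 of the 12 by edgeR, with or without the block. Of the 12, 8 had an unadjusted p under 0.05, as did 1819 of all 14483 genes. The list summed to 375 to 1992 CPM in WT cells with RAS of the S6K1 series, where KO cells had 194 to 717 CPM. For KO against WT RAS 12 of 12 had lower values, with 0 called by edgeR without the block and 12 with it (4.15% of all genes). Of the 12, 11 had an unadjusted p under 0.05, as did 963 of all 14036 genes. DKO against WT RAS had lower values for 11 of 12, with 0 called by edgeR with or without the block. There 8 of the 12 had an unadjusted edgeR p under 0.05, as did 179 of all 13881 genes. For DKO RAS against WT EV, 11 of 12 were called, all lower, where 25.7% of all genes were called. Of the 10 NF-κB genes, 2 were called with RAS in the S6K1 series, both higher, where 13.2% of all genes were called. In the S6K1/S6K2 series 4 were called, 2 in each direction, where 26.3% of all genes were called. The difference of the RAS effect between the series was called for 0 of the 10, with or without the block, with 2 at an unadjusted p under 0.05. For loss of S6K, 0 of the 10 were called by edgeR without the block in either series, and 1 in the S6K1 and 0 in the S6K1/S6K2 series had an unadjusted p under 0.05. With the block 1 was called in the S6K1 series, Vcam1 at -0.70 (edgeR adjusted p = 0.0441), against 4.15% of all genes. The 8 endothelial markers summed to at most 36.3 CPM in any library.

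Over the 18 libraries, r with the mean level of the interferon list was 0.696 for C5ar1, 0.616 for Cfp and 0.563 for C3ar1, and 0.559 for C3, 0.493 for C1ra and 0.443 for C4b. With the NF-κB list it was 0.830 for Cfp and 0.480 for C3. These are descriptions over libraries that share groups and depth.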
